A study of Schizosaccharomyces pombe with 4 samples.

Results

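A set of 5 genes that fission yeast (Schizosaccharomyces pombe) uses against salt and osmotic stress, cta3, gpd1, tps1, tpp1 and ntp1, was followed on both strands in spt6-1 and wild type (WT) cells. They were chosen by gene name, all 5 were present, and they are 5 of the 7023 features of the deposited table. The choice was made with earlier results of these data known, and the strand switch at cta3 was known in advance, so the values of the 5 genes are given as a description, with no p. There were 2 libraries from spt6-1, which carries a mutant allele of spt6, whose product is a histone chaperone that travels with RNA polymerase II, and 2 from WT. Both strains were prototrophic, grew in rich YES medium at 30 °C and were then held at 37 °C for 2 h, so the WT cells had the same heat exposure. The labels do not say what the spt6-1 mutation is or whether replicates came from separate cultures, so the spread between replicates may be technical. RNA was selected for poly(A) tails and sequenced with its strand kept. Values are RPKM, reads scaled by feature length and library size, which can be compared between genes because they are per length. The libraries held 39693042 and 16894607 sense reads in spt6-1 and 36520471 and 17093322 in WT. The RPKM of spt6-1 replicate 1 rest on a denominator of 70.5% of its sense reads, against 98.3% to 102.2% in the other 3 libraries. This scales both strands alike and leaves the shares of reads at a gene as they are. Ribosomal RNA gave 17.8% of its sense reads, against 3.73% in spt6-1 replicate 2 and 12.8% and 6.43% in WT. The median protein-coding gene stood at 28.6 and 28.1 sense RPKM in spt6-1, against 27.0 and 28.2 in WT. The spt6 transcript stood at 12.7 and 8.32 sense RPKM in spt6-1, against 65.5 and 61.6 in WT.

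The members act in 3 branches of the stress response. The product of cta3 is a P-type ATPase, a membrane pump that moves cations at the expense of ATP. Gpd1, glycerol-3-phosphate dehydrogenase, makes the precursor of glycerol, the solute with which the cell balances high external osmolarity. Tps1 and Tpp1 make trehalose, a sugar that protects proteins and membranes under heat and drying, by forming trehalose 6-phosphate and then removing its phosphate, and the neutral trehalase Ntp1 breaks trehalose down. Many fission yeast stress genes are induced through the kinase Sty1 and the transcription factor pair Atf1-Pcr1, which binds sites with the core TGACGT, while the corepressors Tup11 and Tup12 hold genes such as cta3 down in unstressed cells.

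The 250 bases before the annotated starts of cta3, gpd1 and ntp1 are shown because cta3 is the member that switched strand and the windows of gpd1 and ntp1 hold the core TGACGT. They come from the RefSeq annotation of build ASM294v3, each on the plus strand of chromosome II, at chrII:606983-607232 for cta3, chrII:4035316-4035565 for gpd1 and chrII:206331-206580 for ntp1, and capitals mark TGACGT or TATAAA on either strand.
cta3: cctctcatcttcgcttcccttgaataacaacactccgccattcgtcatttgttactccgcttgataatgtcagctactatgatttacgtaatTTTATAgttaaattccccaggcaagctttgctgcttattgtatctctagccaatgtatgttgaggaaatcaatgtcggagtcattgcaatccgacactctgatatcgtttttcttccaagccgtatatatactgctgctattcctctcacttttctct
gpd1: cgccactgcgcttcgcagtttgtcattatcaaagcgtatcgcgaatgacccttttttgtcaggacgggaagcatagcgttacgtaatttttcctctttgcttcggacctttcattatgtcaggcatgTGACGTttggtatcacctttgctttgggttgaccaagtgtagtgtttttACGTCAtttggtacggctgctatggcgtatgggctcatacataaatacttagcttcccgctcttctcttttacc
ntp1: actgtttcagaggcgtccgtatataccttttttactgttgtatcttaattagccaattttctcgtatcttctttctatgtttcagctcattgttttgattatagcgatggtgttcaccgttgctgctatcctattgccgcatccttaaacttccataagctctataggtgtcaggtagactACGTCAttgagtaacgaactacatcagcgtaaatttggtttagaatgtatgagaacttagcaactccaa
The core TGACGT, read on both strands, occurred at -123 and -74 from the gpd1 start and at -69 from the ntp1 start. It was in 282 of 5112 windows of the same length before protein-coding genes, or 5.52%. It was in none of the windows of cta3, tps1 and tpp1, which says only that these letters are not in those 250 bases. TATAAA, read on both strands, was in the windows of cta3 at -158, tps1 at -232 and tpp1 at -147, and in 44.4% of all windows. The 2 motifs did not overlap. In the deposited annotation the non-coding RNA SPNCRNA.319 begins upstream of cta3 and runs into its start on the same strand.

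At cta3 most of the RNA was sense in spt6-1, against mostly antisense in WT. The gene occupies 4776 bases (SPBC839.06, build ASM294v2, chromosome II, 607214 to 611989, plus strand). It has no intron, so both strands are divided by the same length. Sense RNA stood at 45.0 and 18.6 RPKM in spt6-1, against 0.519 and 0.511 in WT. The spt6-1 libraries differed from each other, and the lower of them was still above both WT libraries. Antisense RNA at the same locus stood at 3.81 and 5.94 RPKM in spt6-1, against 7.50 and 7.79 in WT. Here both spt6-1 libraries lay below both WT libraries. The mean sense level was thus 31.8 ± 18.7 RPKM in spt6-1 and 0.515 ± 0.00538 in WT (SD, n = 2 each), a ratio of 61.8, and on the log2(RPKM + 0.5) scale the difference was 4.86 (SE 0.39). For antisense RNA the means were 4.88 ± 1.50 RPKM in spt6-1 and 7.64 ± 0.207 in WT, and the difference was -0.63 (SE 0.23). As in any bulk sample, fewer cells that express a gene and less RNA per cell cannot be told apart.

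**Figure D1:**
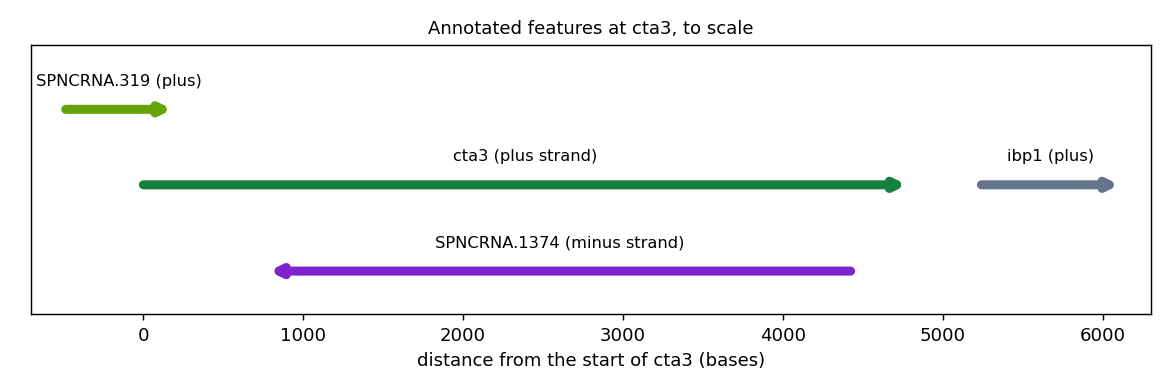
Annotated features at cta3 drawn to scale, with distance in bases from the start of cta3 on the horizontal axis and arrows for the direction of each RNA. SPNCRNA.1374 lies wholly inside cta3 on the opposite strand, and SPNCRNA.319 overlaps the first 182 bases of cta3 on the same strand.

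Counted as reads, the antisense strand gave 7.81% of the 6532 reads at cta3 in spt6-1 replicate 1 (95% exact Clopper-Pearson interval 7.17% to 8.49%) and 24.2% of 2024 reads in spt6-1 replicate 2 (22.4% to 26.1%). In WT it gave 93.5% of 1375 reads (92.1% to 94.8%) and 93.8% of 682 reads (91.8% to 95.5%). The intervals cover counting error only. The WT libraries agreed within theirs, while the intervals of the 2 spt6-1 libraries were apart. The sense level exceeded the antisense level 11.8 times and 3.13 times in spt6-1, whereas antisense exceeded sense 14.4 times and 15.2 times in WT. RNA of both strands together came to 48.9 and 24.5 RPKM in spt6-1, against 8.02 and 8.30 RPKM in WT, so the locus as a whole held more poly(A)-selected RNA in the mutant.

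The annotated antisense RNA SPNCRNA.1374 (chromosome II, 608000 to 611638, minus strand) covers 3639 bases in the interior of cta3 and leaves 786 bases before it and 351 after it. Because it lies wholly inside cta3, its own 2 columns count the same RNA within that interior, and subtraction gives the rest of the gene. How reads across an edge were counted is not stated. Antisense reads fell almost wholly within this RNA in every library, with 510 of 510 in spt6-1 replicate 1 and 489 of 490 in spt6-1 replicate 2, against 1280 of 1286 and 639 of 640 in WT. The count of 0 outside in spt6-1 replicate 1 allows a share of up to 0.588% (3 reads of 510). The antisense density in the interior was 5.01 and 7.78 RPKM in spt6-1, against 9.79 and 10.2 RPKM in WT. Outside the annotated RNA the antisense strand thus held 0 reads and 1 read in spt6-1, against 6 reads and 1 read in WT.

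Sense RNA, in contrast, was found in both sections of the gene in spt6-1. In the interior its density was 54.3 and 22.8 RPKM in spt6-1, against 0.635 and 0.655 RPKM in WT. In the 1137 bases outside it was 15.5 and 4.99 RPKM in spt6-1, from 493 and 98 reads, against 0.147 and 0.0511 RPKM in WT, from 6 reads and 1 read. Between 91.8% and 97.6% of the sense reads of each library came from the interior, which makes up 76.2% of the bases. The share was 91.8% and 93.6% in spt6-1, against 93.3% and 97.6% in WT, so the sense RNA was denser in the interior in both strains.

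**Figure D2:**
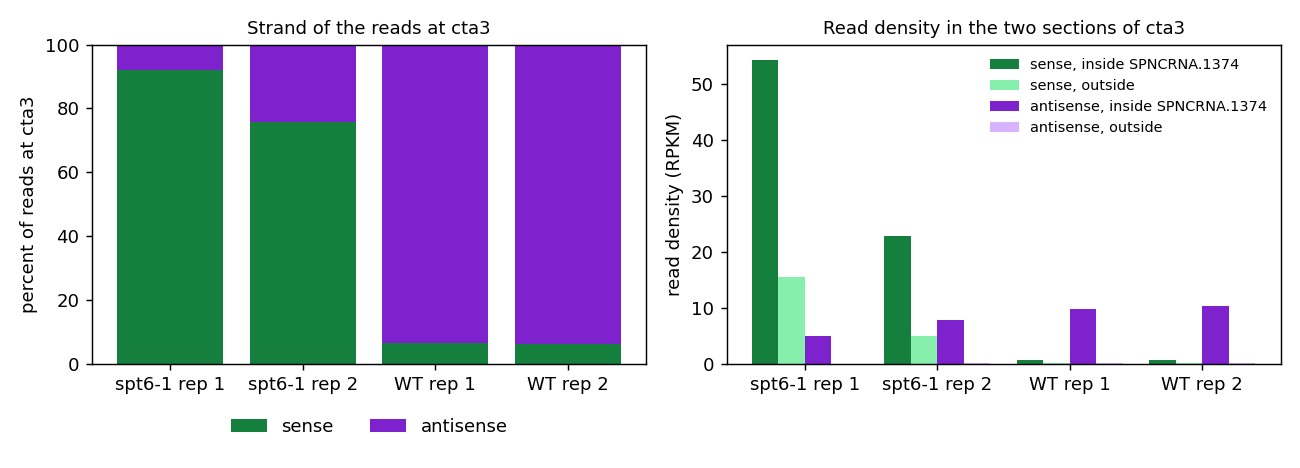
Left, percent of the reads at cta3 on the sense and antisense strand in each library, and right, read density in RPKM on each strand inside SPNCRNA.1374 and in the rest of cta3. Antisense makes up 7.81% and 24.2% of the reads in the spt6-1 libraries and 93.5% and 93.8% in the WT libraries, and antisense outside SPNCRNA.1374 is too low to be seen.

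The annotated RNAs that overlap cta3 share reads with it, so their values are given as a description, and only the neighbouring coding genes take limma's test. SPNCRNA.319, the non-coding RNA that overlaps the first 182 bases of cta3, had 181 and 26 sense reads in spt6-1, against 1 and 1 in WT. Its log2 difference was 3.23 (SE 0.59). For SPNCRNA.1374, whose sense reads are nearly all of the antisense reads of cta3, the log2 difference was -0.64 (SE 0.24). Of the nearest coding genes, ibp1, 466 bases downstream and encoding a Cdc25-type phosphatase, had 12.7 and 11.5 sense RPKM in spt6-1, against 14.3 and 26.3 in WT (adjusted p 0.144). Both spt6-1 values of ibp1 lay below both WT values. On the upstream side new20, 2293 bases away, had 13.1 and 17.6 sense RPKM in spt6-1, against 13.2 and 12.4 in WT, and the groups overlapped (adjusted p 0.410). SPNCRNA.319 was thus higher in both spt6-1 libraries, as cta3 was, while neither neighbouring coding gene passed the test on the sense strand. Antisense RNA at ibp1 was called higher, at 3.31 and 1.81 RPKM in spt6-1, against 1.03 and 1.21 in WT (limma adjusted p 0.0125). That log2 rise of 0.87 lay below the median of 1.58 over all coding genes tested, 81.9% of which rose. Antisense RNA at new20 was not called (adjusted p 0.818).

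Among 4682 protein-coding genes past the filters on both strands, 392 (8.37%) had more antisense than sense RPKM in both WT libraries. Of these, 49 (12.5%) had more sense than antisense RPKM in both spt6-1 libraries, cta3 among them. In 28 of the 49 (57.1%), again with cta3, both spt6-1 antisense values lay below both WT values. The opposite switch, to antisense in both spt6-1 libraries against sense in both WT libraries, was made by 191 of the 4191 genes that were sense in WT (4.56%). These counts were chosen after the values were seen and carry no test. A gene below 1 sense RPKM in both WT libraries, as cta3 was, entered only if both spt6-1 libraries reached it. The sense filter thus favours the switch to sense, and the antisense filter favours the opposite switch in the same way. In the log2 ratio of antisense to sense, cta3 changed by -5.49 (SE 0.49), rank 2 of 4682 from the most negative, and in the sense level it was rank 44 of 6547 from the highest. Both ranks rest on values for which cta3 was chosen.

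The 5 protein-coding genes with the pattern most like cta3 were inv1, meu7, SPAC3G9.11c, SPAC4F10.17 and meu25, out of 4681 compared. Likeness was the Euclidean distance over 8 log2 values, 4 libraries on 2 strands, each gene centred on its own mean, and it ran over only 4 libraries. The distances were 1.71, 1.84, 2.59, 2.60 and 2.73, against a median of 7.93. The invertase gene inv1 had 30.4 and 29.7 sense RPKM in spt6-1, against 1.71 and 1.85 in WT, and 12.5 and 8.86 antisense RPKM in spt6-1, against 16.7 and 14.3 in WT. The meiotically induced gene meu7 had 171 and 121 sense RPKM in spt6-1, against 2.83 and 2.53 in WT, while its antisense RNA stood at 54.5 and 34.2 RPKM in spt6-1, against 28.3 and 29.6 in WT. SPAC4F10.17 had 29.8 and 16.9 sense RPKM in spt6-1, against 1.92 and 3.22 in WT. Its antisense RNA stood at 3.02 and 3.26 RPKM in spt6-1, against 4.156 and 6.68 in WT. SPAC3G9.11c had 11.9 and 7.62 antisense RPKM in spt6-1, above 4.99 and 3.29 in WT, and meu25 had 8.83 and 8.46, against 7.91 and 8.58. Each of the 5 genes had more antisense than sense RNA in WT. They were picked for nearness to cta3 in these same values, so that likeness is not a separate result. Of the 5, inv1 and SPAC4F10.17, like cta3, had both spt6-1 antisense values below both WT values.

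**Figure D3:**
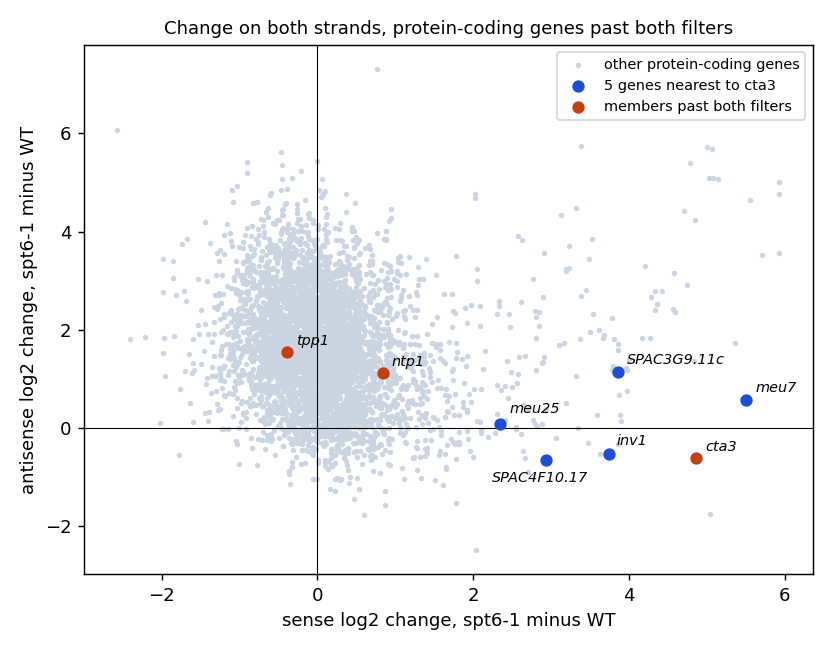
Sense log2 change (horizontal) against antisense log2 change (vertical), spt6-1 minus WT on the log2(RPKM + 0.5) scale, 1 point per protein-coding gene past both filters. The gene cta3 lies at 4.86 and -0.63, apart from tpp1 and ntp1, and the 5 genes nearest to it in pattern are named.

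Gpd1 was the most abundant member in both strains and its groups overlapped on the sense strand. The gene (SPBC215.05, chromosome II, 4035580 to 4037342, plus strand) had 1204 and 612 sense RPKM in spt6-1, against 895 and 1072 in WT. The spt6-1 libraries lay on either side of the WT libraries. The log2 difference was -0.19 (SE 0.42). Leaving out spt6-1 replicate 1 gave -0.68, and leaving out spt6-1 replicate 2 gave 0.30. Its antisense RNA was 0.304 and 0.460 RPKM in spt6-1, from 15 and 14 reads, against 0.0632 and 0.0659 RPKM in WT, from 4 and 2 reads. Antisense was 0.0252% and 0.0751% of the reads at the locus in spt6-1, against 0.00706% and 0.00615% in WT, so gpd1 kept its sense strand. The nearest coding genes are git11, 4007 bases away, which encodes a G protein subunit of the glucose response, and SPBC215.06c, 646 bases away. On the sense strand git11 had 3.25 and 4.46 RPKM in spt6-1, against 5.24 and 3.96 in WT. SPBC215.06c had 20.6 and 28.4 RPKM in spt6-1, against 30.4 and 34.2 in WT (adjusted p 0.225). Antisense RNA at git11 was 0.558 and 0.745 RPKM in spt6-1, against 0.0768 and 0.214 in WT. It passed the filter of 0.5 antisense RPKM only through spt6-1, so its antisense fit has no independent bearing.

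None of the 3 trehalose genes was called on the sense strand with all 4 libraries. The synthase gene tps1 (SPAC328.03, chromosome I, 3479098 to 3481305, plus strand) had 610 and 418 sense RPKM in spt6-1, against 341 and 399 in WT. Both spt6-1 values were higher, but the lower of them was close to the higher WT value, and the log2 difference was 0.45 (SE 0.32). The phosphatase gene tpp1 (SPAC19G12.15c, chromosome I, 4074998 to 4077914, minus strand) had 110 and 113 sense RPKM in spt6-1, against 143 and 149 in WT. Both spt6-1 libraries lay below both WT libraries, with a log2 difference of -0.39 (SE 0.23). The trehalase gene ntp1 (SPBC660.07, chromosome II, 206580 to 209641, plus strand) had 239 and 155 sense RPKM in spt6-1, against 110 and 104 in WT. Its groups did not overlap either, and the log2 difference was 0.84 (SE 0.29). In order of mean sense level, gpd1 led in spt6-1 with 908 ± 419 RPKM, followed by tps1 with 514 ± 136, ntp1 with 197 ± 59.3, tpp1 with 111 ± 2.12 and cta3 with 31.8 ± 18.7 (SD, n = 2 each). In WT the order was gpd1 with 984 ± 125, tps1 with 370 ± 41.4, tpp1 with 146 ± 4.37, ntp1 with 107 ± 4.29 and cta3 with 0.515 ± 0.00538. The trehalase gene thus stood above the phosphatase gene in both spt6-1 libraries and below it in both WT libraries, while the other ranks were the same. No neighbours in these orders overlapped in their library values, and the closest were gpd1 and tps1 in spt6-1, where the lower gpd1 value was 612 RPKM and the higher tps1 value 610 RPKM.

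**Figure D4:**
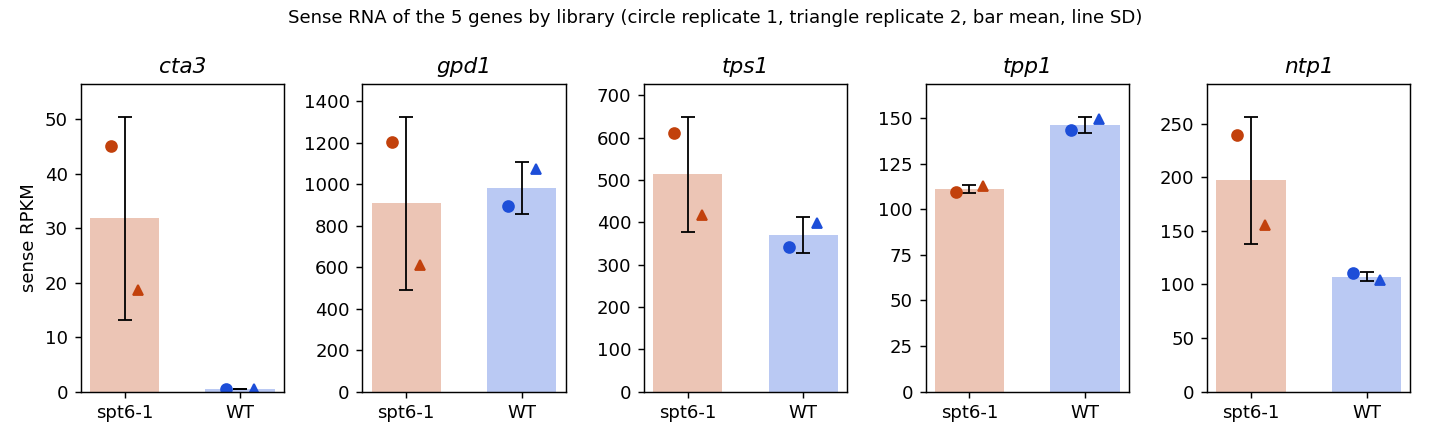
Sense RPKM of the 5 genes in each library, on a linear axis of its own for each gene, with bars for the mean and lines for the SD of n = 2 libraries per group. The spt6-1 and WT points of cta3 are far apart, 45.0 and 18.6 against 0.519 and 0.511 RPKM, and those of gpd1 overlap.

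In the limma fit over the whole table, 1 of the 5 members, cta3, was past an adjusted p of 0.05 on the sense strand, in the higher direction. Over all 6547 features tested 21.8% were higher and 6.67% lower in spt6-1, and over the 5060 protein-coding genes among them 12.1% were higher and 8.2% lower. On the antisense strand 3 of the 5 members passed the filter, of which tpp1 and ntp1 were called higher and cta3 lower, where 81.9% of 4728 protein-coding genes were called higher and 1.65% lower. In the ratio of antisense to sense, tpp1 was called higher and cta3 lower, against 71.7% higher and 6.04% lower over 4682 genes. Nothing is read from these counts, since the members were chosen with this contrast known. The gene cta3 stood below 1 sense RPKM in both WT libraries, so it entered the sense and ratio fits only through spt6-1. The call of lower antisense RNA at cta3 was lost without WT replicate 1, WT replicate 2 or spt6-1 replicate 1, with log2 differences of -0.65, -0.60 and -0.34, and ntp1 was called higher on the sense strand without spt6-1 replicate 2, with a log2 difference of 1.15.

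Antisense RNA at the other 4 members was scarce in both strains. At tpp1 it stood at 1.45 and 0.615 RPKM in spt6-1, from 118 and 31 reads, against 0.0191 RPKM and 0 in WT, from 2 reads and 0. The count of 0 allows an antisense share of up to 0.04% (3 reads of 7500). At ntp1 it stood at 0.910 and 0.567 RPKM in spt6-1, from 78 and 30 reads, against 0.0818 and 0.0570 RPKM in WT, from 9 and 3 reads. At tps1 it stood at 0.906 and 0.341 RPKM in spt6-1, from 56 and 13 reads, against 0.0504 and 0.0263 RPKM in WT, from 4 reads and 1 read. For gpd1, tps1, tpp1 and ntp1 both spt6-1 libraries lay above both WT libraries, as they did for the median antisense level of protein-coding genes. The share of all coding genes with such a separation was not counted. Even so, the mean antisense share of reads in spt6-1 was at most 0.922% ± 0.535 (tpp1), beside 0.372% ± 0.0105 for ntp1, 0.115% ± 0.0472 for tps1 and 0.0502% ± 0.0353 for gpd1, whereas it was 16.0% ± 11.6 for cta3 (SD, n = 2 each). In WT it was 0.00666% ± 0.00942 for tpp1, 0.0644% ± 0.0138 for ntp1, 0.0107% ± 0.00580 for tps1, 0.00660% ± 0.000642 for gpd1 and 93.7% ± 0.222 for cta3. The members tpp1 and ntp1 passed the filter of 0.5 RPKM in at least 2 libraries only through spt6-1, and gpd1 and tps1 did not pass it, so the antisense fit has no independent bearing on them. The median protein-coding gene stood at 3.97 and 3.43 antisense RPKM in spt6-1, against 0.496 and 0.462 in WT. The antisense log2 changes of tpp1 and ntp1, 1.53 and 1.11, lay below the median change of 1.58 over the 4728 genes of the fit. They turned to -0.56 and -0.98 when each library was centred on its median log2 level, a scaling that takes 2.09 off every gene.

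**Figure D5:**
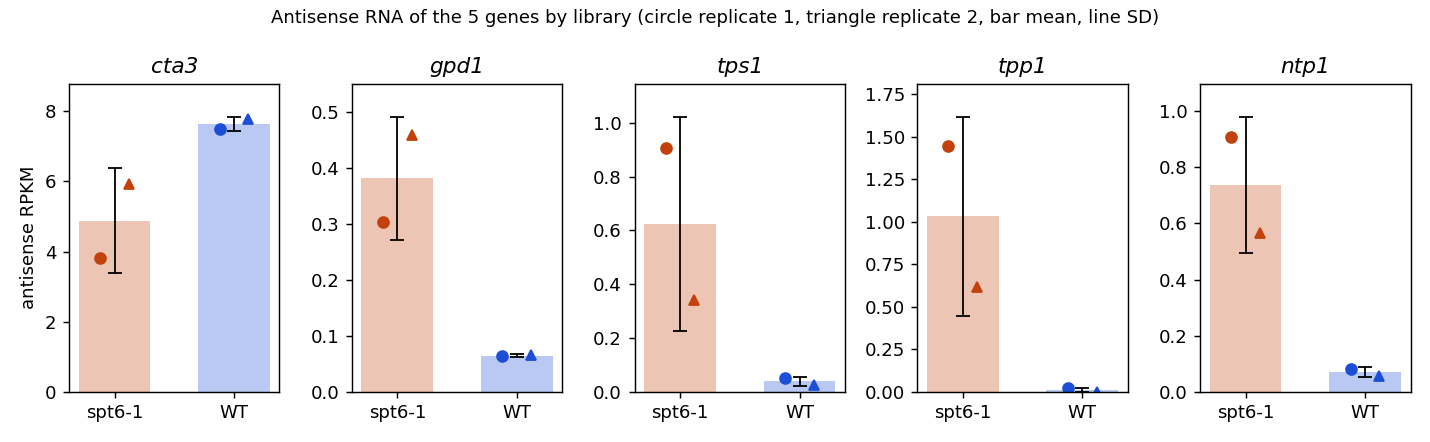
Antisense RPKM of the 5 genes in each library, on a linear axis of its own for each gene, with bars for the mean and lines for the SD of n = 2 libraries per group. Only cta3 has its spt6-1 points, 3.81 and 5.94 RPKM, below its WT points, 7.50 and 7.79 RPKM.

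Among the coding neighbours of the trehalose genes, 1 of 6 rose on the sense strand, where 12.1% of all coding genes tested rose. On the antisense strand 4 of the 5 past the filter rose, where the share over all coding genes tested was 81.9%. SPAC328.04, 199 bases downstream of tps1, had 24.3 and 11.8 antisense RPKM in spt6-1, against 0.224 and 0.225 in WT, a log2 rise of 4.59 (SE 0.31, limma adjusted p 1.55e-06). It passed the filter of 0.5 antisense RPKM only through spt6-1, so this p has no independent bearing. SPAC328.02, whose end overlaps the first 63 bases of tps1 on the same strand, rose to 10.1 and 9.10 antisense RPKM in spt6-1, against 3.47 and 3.74 in WT (adjusted p 1.34e-04). That rise of 1.30 on the log2 scale lay below the median change of 1.58 and turned to -0.79 when each library was centred on its median log2 level. SPBC660.08, 114 bases downstream of ntp1, rose to 12.7 and 11.4 antisense RPKM in spt6-1, against 0.255 and 0.574 in WT (adjusted p 1.15e-06). It was below 0.5 RPKM in WT replicate 1, so it too needed spt6-1 to pass the filter. Upstream of ntp1, SPBC660.06 rose on the sense strand to 137 and 126 RPKM in spt6-1, against 48.5 and 36.0 in WT, by 1.64 on the log2 scale (SE 0.24, adjusted p 0.00344). SPNCRNA.1327, which overlaps the first 331 bases of ntp1 on the opposite strand, had 9.20 and 8.46 sense RPKM in spt6-1, against 4.99 and 5.21 in WT (adjusted p 0.0261), a call that ended without any of the 4 libraries (0.0761 to 0.119). The lipid kinase gene its3, which overlaps the last 39 bases of tpp1 from the opposite strand, had 60.7 and 52.8 sense RPKM in spt6-1, against 49.6 and 56.8 in WT, and the groups overlapped. Its antisense rise (adjusted p 0.0270) ended without WT replicate 1 (0.205), WT replicate 2 (0.0855) or spt6-1 replicate 1 (0.0889) and turned to -1.52 when each library was centred. Reads in the 39 bases shared by its3 and tpp1, or the 331 shared by SPNCRNA.1327 and ntp1, may count for both features. The other neighbour of tpp1, adg2, had 437 and 319 sense RPKM in spt6-1, against 213 and 281 in WT (adjusted p 0.190).

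The other genes of the same pathways were taken from 4 lists with 53 genes in all, chosen by function. The lists were drawn up with earlier results of these data known, so their counts and p values are not independent of that choice. Values of gpd2, SPACUNK4.16c, cta4, wis1 and cgs1 were seen before these genes were added to the text. Of 8 genes of glycerol and dihydroxyacetone metabolism, 2 rose on the sense strand (3 by voom and 3 without spt6-1 replicate 2), with a median log2 change of 0.50 beside 0.03 over all protein-coding genes tested, of which 12.1% rose and 8.2% fell. The dihydroxyacetone kinase gene dak2 stood at 58.7 and 39.5 sense RPKM in spt6-1, against 2.63 and 4.42 in WT (log2 change 3.63, SE 0.29, limma adjusted p 2.94e-04), and the glycerol dehydrogenase gene gld1 at 32.3 and 13.4, against 2.50 and 2.63 (adjusted p 0.00261). The paralogue of gpd1, gpd2, had 89.1 and 104 sense RPKM in spt6-1, against 87.7 and 147 in WT. Of the 6 trehalose and storage carbohydrate genes, 0 passed on the sense strand by limma. The count was also 0 by voom, and 0 when limma's p was left unadjusted at the threshold of 0.05, and the median was 0.30. Without spt6-1 replicate 2, 1 gene rose by the adjusted p and 2 by the unadjusted one, with a median of 0.63. SPACUNK4.16c, which RefSeq names tps3, had 431 and 264 sense RPKM in spt6-1, against 211 and 230 in WT (adjusted p 0.206).

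Of 21 genes of cation transport and salt tolerance, 2 rose on the sense strand, with a median of 0.05, beside 12.1% and a median of 0.03 over all protein-coding genes tested. The proton pump gene pma2 had 7.08 and 7.14 sense RPKM in spt6-1, against 0.152 and 0.112 in WT (log2 change 3.59, SE 0.26, adjusted p 1.78e-04). It passed the filter of 1 sense RPKM only through spt6-1, so this p has no independent bearing. Antisense RNA at pma2 was 13.5 and 9.90 RPKM in spt6-1, against 9.36 and 9.92 in WT, so antisense stayed above sense in every library. Its sequence is close to that of its paralogue pma1, and reads that fit both genes may be split between them, which was not tested. The sense level of pma1 was 994 and 1195 RPKM in spt6-1, against 863 and 1944 in WT. The calcium sensor gene ncs1 had 60.7 and 83.5 sense RPKM in spt6-1, against 24.0 and 32.6 in WT (adjusted p 0.0106), and lost its call without WT replicate 1 (0.0526) or spt6-1 replicate 2 (0.0507). The ATPase gene cta4, which shares its family name with cta3, had 76.2 and 62.6 sense RPKM in spt6-1, against 102 and 129 in WT (adjusted p 0.0678).

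Of 18 osmotic and stress regulators, 4 rose and 1 fell on the sense strand, with a median of 0.20. Over all protein-coding genes tested 12.1% rose and 8.2% fell, with a median of 0.03. The transcription factor gene atf1 stood at 202 and 171 sense RPKM in spt6-1, against 55.7 and 79.5 in WT (log2 change 1.48, SE 0.27, adjusted p 0.00839). The corepressor gene tup11 stood at 72.5 and 65.5 RPKM in spt6-1, against 36.7 and 30.3 in WT (adjusted p 0.0129), and the transcription factor gene rst2 at 72.0 and 77.5, against 21.5 and 37.0 (adjusted p 0.0135). The kinase gene wis1 rose to 35.8 and 29.9 RPKM in spt6-1, against 13.4 and 19.5 in WT (adjusted p 0.0225). The gene of the regulatory subunit of protein kinase A, cgs1, fell to 1.10 and 1.38 RPKM in spt6-1, against 2.67 and 3.20 in WT (adjusted p 0.0322). The call for atf1 held with any 1 library left out. That for tup11 ended without WT replicate 2 (0.0584) or spt6-1 replicate 1 (0.0683), and that for rst2 without spt6-1 replicate 1 (0.0539) or 2 (0.0577). For wis1 it ended when WT replicate 1 (0.103) or either spt6-1 library (0.112 for replicate 1 and 0.0532 for replicate 2) was left out, and for cgs1 without WT replicate 1 (0.105), WT replicate 2 (0.155) or spt6-1 replicate 1 (0.102).

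On the antisense strand 42 of the 53 listed genes passed the filter and 36 rose, with a median log2 change of 1.80 beside 1.58 over all coding genes tested, 81.9% of which rose. By list these were 4 of 6 glycerol genes, 5 of 5 trehalose and storage genes, 13 of 17 cation genes and 14 of 14 regulators. The cation genes with the smallest adjusted p were those of the Na+/H+ antiporter sod2, the Ca2+ pump pmr1 and the K+/H+ antiporter kha1, with log2 rises of 3.70, 3.38 and 3.10. Those among the regulators were the phosphatase gene pyp2 (3.90) and the kinase gene wis4 (3.68), with tup11 (3.45), and in the glycerol list SPAC977.17 (4.30), gpd2 (2.55) and dak1 (1.93). SPAC977.17 overlaps dak2 on the opposite strand (chromosome I, 66219 to 66980), so its antisense reads may include sense reads of dak2. In the trehalose list the genes with the smallest adjusted p were tps2 (1.67), SPACUNK4.16c (2.47) and hxk1 (2.19). Of the genes named, pmr1, pyp2, wis4, SPAC977.17, gpd2, tps2 and SPACUNK4.16c were below 0.5 antisense RPKM in both WT libraries. So was gld1, named below for its ratio, with 0.289 and 0.362 RPKM in WT. The gene hxk1 was below 0.5 RPKM in WT replicate 2 (0.353), so it too needed spt6-1. All of these genes passed the filter only through spt6-1, so the counts have no independent bearing on them. The 81.9% over all coding genes rests on the same filter. The changes of dak1 and tps2 lay above the median change and turned to -0.17 and -0.42 when each library was centred on its median log2 level. In the ratio of antisense to sense 30 of the 42 rose, beside 71.7% of all coding genes tested, and 3 fell, beside 6.04%. Those that fell were dak2, gld1 and pma2, with log2 changes of -4.18, -1.62 and -3.34, beside -5.49 for cta3. Both pma2 and cta3 passed the sense filter only through spt6-1.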

How the data were processed

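The deposited table holds 1 sense and 1 antisense RPKM value per library for 7023 features, made by the authors. The submitters' processing notes name TopHat and build ASM294v2. No source used here gives the counter, the annotation or the handling of reads with several positions. Library denominators were recovered from the RPKM, and 100% of 56184 values were whole reads within 0.01 read. The denominator of spt6-1 replicate 1 was 70.5% of its sense reads, against 98.3% to 102.2% in the other libraries. Values were tested as log2(RPKM + 0.5) with limma 3.58.1 in R 4.3.3 (eBayes with a trend, Benjamini-Hochberg over all features tested, two-sided, threshold 0.05), so fold changes of low genes are understated. Features entered the sense fit when 2 or more libraries reached 1 RPKM. For the antisense fit a protein-coding gene had to reach 0.5 RPKM in 2 or more libraries, and the ratio fit needed both. With 2 against 2 libraries an exact permutation test cannot give a p under 0.33. Genes were named as members, overlapping or nearest features, the 3 listed genes per strand with the smallest adjusted p past the threshold, and the 5 nearest in pattern to cta3; gpd2, SPACUNK4.16c, cta4, wis1 and cgs1 were added after their values were seen. The members and lists were chosen with earlier results of these data known. Sequences were read from RefSeq ASM294v3, in which 5119 of 5123 coding features of the table are open from ATG to stop at their deposited coordinates. A deposited list of splice junctions was not used.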

Additional observations from a re-analysis of the deposited data

How the results depend on the processing

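As a description, the sense level and the antisense to sense ratio of cta3, the values it was chosen for, had log2 differences of 4.11 to 5.75 and -7.50 to -4.57 over the alternatives run, and its antisense share differed by -77.7 percentage points (-85.9 to -69.5 with 1 library left out). Centring each library on its median log2 level takes 2.09 off every antisense change, so that any rise below that turns negative by construction and the median change becomes -0.51. Centring and quantile normalization, in that order, left 961 and 1316 of 4728 genes higher and 2406 and 1494 lower on the antisense strand, and 941 and 1243 of 4682 higher and 1904 and 1257 lower in the ratio. Of the members 0 and 0 were then called higher on the antisense strand and 3 (centred) lower, and in the ratio 0 and 0 were higher and 2 and 2 lower. Of the listed genes 14 and 15 were higher and 20 and 16 lower on the antisense strand, 12 and 13 higher and 19 and 17 lower in the ratio, and on the sense strand 2 and 2 were lower. With protein-coding reads as denominator, 2 listed genes were lower on the sense strand and 1 on the antisense strand. With no filter 4 members were higher on the antisense strand, and with a pseudocount of 0.1 RPKM 2 were higher in the ratio. With 1 library left out, 1 to 2 members were higher on the sense strand and 0 to 1 lower on the antisense strand, while 5 to 9 listed genes (1 to 4 regulators, 1 to 3 cation genes) were higher and 0 to 1 lower on the sense strand and 0 to 1 lower on the antisense strand. The named antisense changes that were positive and turned negative, by centring and by quantile normalization, were -0.79 and -0.18 for SPAC328.02, -0.95 and -0.30 for SPAC3G9.11c, -1.88 and -1.47 for SPBC660.06, -0.17 and -0.060 for dak1, -1.25 and -0.65 for git11, -0.91 and -0.70 for gld1, -1.22 and -1.10 for ibp1, -1.52 and -1.32 for its3, -2.03 and -1.21 for meu25, -0.98 and -0.35 for ntp1, -1.84 and -0.84 for pma2, -1.22 and -0.74 for rst2, and by centring only -1.52 for meu7, -0.56 for tpp1, -0.42 for tps2. The causes of the other changes were not tested. Reads at the antisense strand of gpd1, tps1, tpp1 and ntp1, at most 9 in any WT library, limit those values. No label pairs the libraries. Deviations of same-numbered libraries correlated at 0.323 on the sense strand and 0.202 on the antisense strand across features, and with a replicate block 12 listed genes were higher on the sense strand (4 of them in the glycerol list, against 2) and 37 on the antisense strand, against 8 and 36 without it, while the members' counts were the same.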
